A study of Monascus purpureus with 6 samples.

Results

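The genes described here are 100 genes of *Monascus purpureus* whose share of the sequenced reads differed least among 6 RNA-seq libraries, 3 from the YY-1 strain and 3 from its mutant winter. They were chosen by the measured values themselves. Each count was divided by the total of its library and multiplied by 1000000 to give CPM. Of the 7491 listed rows, 7392 lay on the large scaffolds C1 to C8, and 1772 of these had a mean of at least 100 CPM over the 6 libraries. After the 100 genes with the highest mean in YY-1 and the 15 outermost genes at each scaffold end were left out, 1630 genes met the rule. Among these the 100 genes with the lowest coefficient of variation (CV, the SD over the 6 libraries divided by the mean) were taken, and they are called the steady genes below. The values that chose them are given as a description, and counts of calls between the strains, which come from fits over all genes to the same libraries, support nothing about them.

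A reference gene is a gene whose transcript is used as the internal standard when other transcripts are compared between samples, as in quantitative PCR. Genes for glycolytic enzymes, actin or tubulin are often taken for this purpose because every growing cell uses them, but their transcripts can shift when metabolism shifts. In *Monascus*, pigments and citrinin are polyketides that draw on acetyl-CoA from central carbon metabolism, so that a standard from this part of metabolism may move together with the process under study. A standard that holds its level in both strains, and that lies away from the gene clusters of the secondary metabolites, is therefore of practical use. The study took GAPDH, a glycolytic gene, as its internal standard, and the identifier of that gene was not analysed here.

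YY-1 is the wild-type strain. Winter is a single hygromycin-resistant transformant of YY-1, picked for its low citrinin production. It was obtained by protoplast transformation with the plasmid pHPH, which carries a hygromycin B resistance cassette. Mycelia of both strains were harvested after 8 days of cultivation, and the labels name the replicates of each strain a, b and c, which the methods describe as independent biological triplicates. Library totals ran from 9661178 to 10595943 counts for YY-1 and from 15194009 to 16004947 counts for winter. The gene identifiers, such as C8.485 (gene 485 of scaffold C8), carry no product names, and 0 of them matched the reference gene table, which is for strain KUPM5. The supplementary lists of Gene Ontology terms were held only in part and gave none, so no product or role is given for any steady gene, and the mycelial origin was not checked against markers. Values are reads per library and are not divided by gene length, so that a higher CPM in one gene than in another does not mean more transcript. A steady CPM is a steady share of the library, and the amount of RNA per cell was not measured.

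C8.485 had the lowest CV of all 1630 genes. For replicates a, b and c, in this order throughout, it stood at 273, 291 and 277 CPM in YY-1 and 268, 267 and 264 CPM in winter, a mean of 273 ± 9.83 CPM (SD, n = 6) and a CV of 3.60%. All YY-1 values lay above all winter values, although the highest was only 1.10 times the lowest. C7.292 followed with 155, 169 and 168 CPM in YY-1 and 165, 161 and 156 CPM in winter (CV 3.63%), and here the strains overlapped. C4.601 had 183, 179 and 172 CPM in YY-1 and 169.7, 167 and 164 CPM in winter (CV 4.17%). As for C8.485, the YY-1 values of C4.601 were all above those of winter.

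C2.1019 had 103, 108 and 102 CPM in YY-1 and 106, 101 and 113 CPM in winter, with a CV of 4.18%. C4.729 had 130.4, 117 and 131 CPM in YY-1 and 122, 126 and 122 CPM in winter (CV 4.32%). The strains overlapped in both of these genes, and in C4.729 the lowest and the highest value both came from YY-1. C6.213 showed 154, 162 and 158 CPM in YY-1 and 158, 174 and 155 CPM in winter (CV 4.49%), with winter replicate b above the rest. C3.108 separated the strains within a narrow range, with 136, 132 and 134 CPM in YY-1 and 123, 124 and 125 CPM in winter (CV 4.51%). Within a strain it was among the tightest genes, with a CV of 1.47% in YY-1 and 0.816% in winter.

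The last of the 10 genes with the lowest CV were C4.879, C2.489 and C6.465. C4.879 had 119.6, 110.2 and 107 CPM in YY-1 and 111, 107 and 118 CPM in winter. C2.489 had 310.4, 296 and 321 CPM in YY-1 and 318, 313 and 281 CPM in winter. C6.465 had 191, 179 and 205 CPM in YY-1 and 203, 189 and 187 CPM in winter. Their CVs were 4.78%, 4.99% and 5.12%, and the strains overlapped in each. The plot of the 10 genes by library shows the YY-1 values above the winter values in C8.485, C4.601 and C3.108 and mixed values in the others.

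**Figure D1:**
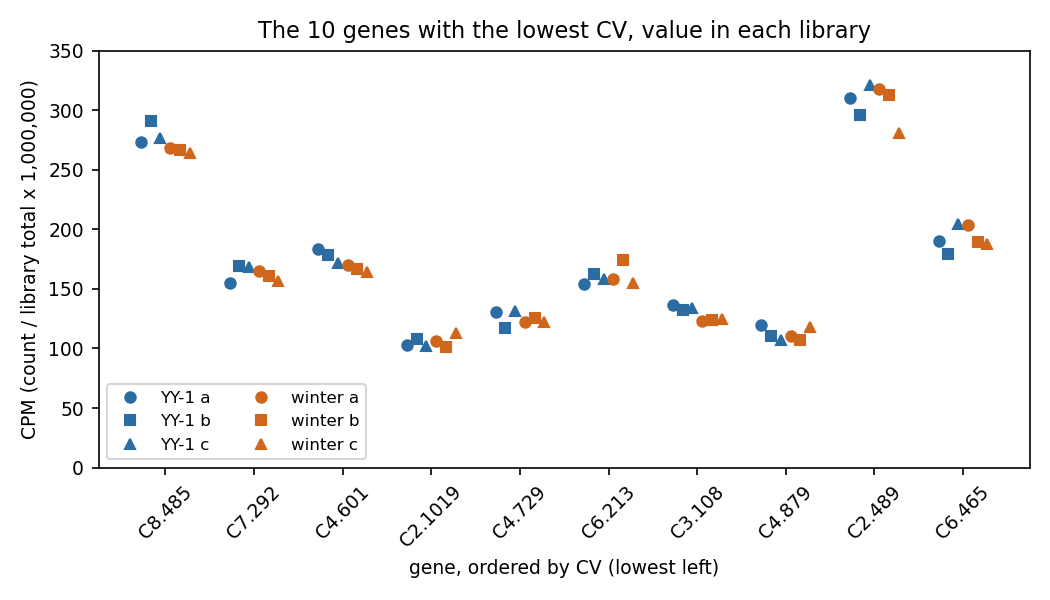
CPM (y axis, linear from 0) of the 10 genes with the lowest CV, in order of CV from 3.60% (C8.485) to 5.12% (C6.465). Each symbol is 1 library, blue for YY-1 and orange for winter, with circles, squares and triangles for replicates a, b and c. The YY-1 symbols lie above all winter symbols in C8.485, C4.601 and C3.108 and are mixed with them in the other genes.

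Over the 100 steady genes the CV ran from 3.60% to 10.2% with a median of 7.98%, against a median of 24.9% over the 1630 genes that met the rule. The highest value of a steady gene was 1.09 to 1.37 times its lowest (median 1.23), while the median ratio over the 1630 genes was 1.88. The border was not a step. The last genes inside were C1.923 (10.18%), C8.454 (10.19%) and C7.99 (10.19%), and the first outside were C5.666 (10.20%), C2.443 (10.24%) and C2.111 (10.24%). With 6 libraries a CV is known only roughly. If the libraries are treated as 1 group of normal values, the 95% interval of a CV reaches from 0.624 to 2.45 times its value, which is 2.24% to 8.82% for C8.485. The lower bounds of 261 of the 1630 genes lay below 8.82%, so the order within the steady genes, and between them and the genes just outside, is not resolved.

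The spread was above counting error in every steady gene. The steady genes had between 891 and 20060 counts in a library, and Poisson counting alone gives CVs of 0.820% to 2.85%. The observed CV was 1.5 to 11.5 times that of counting alone (median 3.56), against a median of 13.1 times over the 1630 genes. For 9 steady genes it was under 2 times. No other gene of the 1630 could be, since counting gave a CV of at most 3.02% among them. The genes outside the cut had CVs of 10.20% or more. The lower ratios of the steady genes thus follow from their choice by low CV. C6.757, with the highest mean of the steady genes, had 1076, 1122 and 1264 CPM in YY-1 and 1224, 1235 and 1292 CPM in winter. Its CV was 7.03%, where counting alone gives 0.820%.

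**Figure D2:**
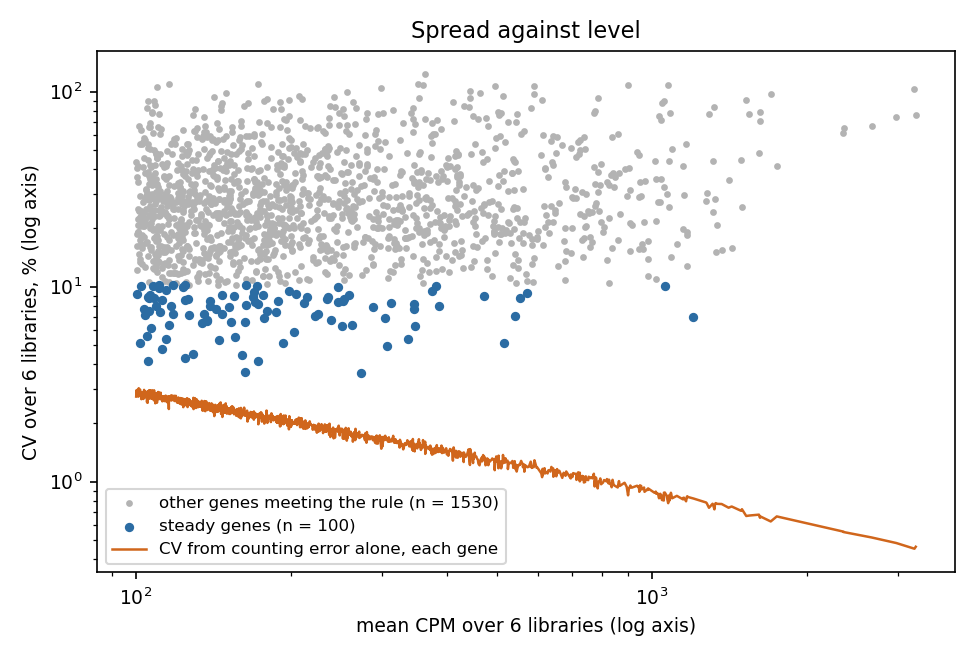
CV in percent over the 6 libraries (y axis, log scale) against mean CPM (x axis, log scale) for the 1630 genes that met the rule. Blue points are the 100 steady genes, grey points the other 1530, and the orange line joins each gene's CV from counting error alone. The steady genes lie between 3.60% and 10.2%, and all 1630 genes lie above the line.

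The steady genes were mostly genes of moderate read share. Their mean CPM ran from 101 to 1202 with a median of 163, at the 76.3 to the 98.5 percentile of all rows. Of the 100 genes, 65 lay between 100 and 200 CPM, 29 between 200 and 500 CPM and 6 at 500 CPM or above. These are 7.58%, 5.44% and 2.5% of the genes of each class that met the rule. The median CV of all genes in these classes was 23.9%, 25.7% and 28.2%. Together the steady genes took 2.12% to 2.19% of the counts of a library.

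At the upper end, C5.340 had 1017, 989.9 and 1239 CPM in YY-1 and 1116, 937 and 1053 CPM in winter (CV 10.1%), with YY-1 replicate c above the others. C7.672 had 567, 488 and 558 CPM in YY-1 and 637, 564 and 624 CPM in winter (CV 9.27%). C5.359 had 569, 566 and 640.1 CPM in YY-1 and 514, 513 and 526 CPM in winter (CV 8.77%). The strains overlapped in C5.340 and C7.672, and in C5.359 every YY-1 value was above every winter value. At the lower end, C3.472 had 86.8 to 111 CPM, C3.78 had 96.8 to 110.4 CPM, C6.738 had 88.0 to 114 CPM and C8.69 had 97.1 to 119 CPM over the 6 libraries. All 4 had overlapping strains. Of these, C3.78 was the tightest, with a CV of 5.13%, against 9.17% in C3.472, 10.1% in C6.738 and 7.65% in C8.69.

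Both strains and all 6 libraries contributed to this spread. The median CV of the steady genes was 6.73% within YY-1 and 5.92% within winter, and it was larger in YY-1 for 63 genes. Over the 1630 genes it was larger in YY-1 for 58.6%. Winter replicate b held the highest value of 28 steady genes and winter replicate a the lowest value of 26. YY-1 replicate c was the highest for 24 and the lowest for 18. Among the 1630 genes winter replicate b was the highest in 29.9%, YY-1 replicate c in 13.3%, and winter replicate a was the lowest in 20.1%. For 41 steady genes the strain means differed by more than the pooled SD within the strains on the log2 scale, against 75.1% of the 1630 genes.

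Because the rule compares all 6 libraries, the difference between the strains was one of the values that chose the genes, and the following is a description. In edgeR's quasi-likelihood test over 7355 genes, which all 100 steady genes entered, 0 steady genes passed an adjusted p of 0.05, while 48.0% of all tested genes did. At an unadjusted p below 0.05 there were 2 steady genes, C8.454 and C8.144, against 55.0% of all tested genes. DESeq2's Wald test called 2 steady genes, C8.454 and C5.596, against 49.9% of all tested genes. The CPM values of the strains did not overlap for 20 steady genes, 11 of them higher in winter, where 54.2% of all tested genes did not overlap.

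The fold changes and their intervals were likewise bounded by the choice and are given only to show the size of the differences. The log2 fold changes, winter over YY-1 on TMM-scaled libraries, ran from -0.11 to 0.35, with 95% intervals whose half-widths were 0.29 to 0.47. For all 100 steady genes the interval lay between -1 and 1, and for 73 it lay between -0.5 and 0.5. Over all tested genes, which were not chosen for a low spread, these shares were 56.3% and 12.2%. The log2 fold change of C8.485 was 0.02 (interval -0.31 to 0.35) and that of C3.174 was 0.00 (interval -0.31 to 0.32).

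The highest fold change belonged to C8.454, which had 97.7, 108 and 98.2 CPM in YY-1 and 124, 119 and 118 CPM in winter. The log2 fold change of C8.454 was 0.35 (SE 0.14), and the strains did not overlap. It passed the threshold when the libraries were scaled by DESeq2's size factors in edgeR and when winter replicate b was left out. C2.354 had 156, 152 and 163 CPM in YY-1 and 197, 184 and 179 CPM in winter, and its log2 fold change was 0.34 (interval -0.01 to 0.68). C1.923 had 162, 135 and 156 CPM in YY-1 and 169, 177 and 180.0 CPM in winter. C8.144 had 95.3, 105 and 95.2 CPM in YY-1 and 110.4, 115 and 116 CPM in winter. The log2 fold change was 0.30 for each of C1.923 and C8.144, and in all 4 genes every winter value was above every YY-1 value.

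On TMM-scaled libraries the lowest fold changes were smaller in size than the highest. On library totals the log2 fold changes of the steady genes ran from -0.20 to 0.25. C5.477 had 285, 262 and 263 CPM in YY-1 and 237, 239 and 228 CPM in winter, and its log2 fold change was -0.11 (interval -0.44 to 0.23). C4.117 had 180.1, 172 and 192 CPM in YY-1 and 159.7, 167 and 152 CPM in winter, and its log2 fold change was -0.10. C1.572 had 243, 252 and 255 CPM in YY-1 and 201, 243 and 221 CPM in winter, where the log2 fold change was -0.09. The strains overlapped in C1.572 but not in C5.477, C4.117 or C5.359, whose log2 fold change was -0.10. On TMM-scaled libraries, leaving out YY-1 replicate c gave 0.0098 in C4.117, 0.022 in C5.359 and -0.01 in C1.572. On this scale C4.117 and C5.359 thus changed sign, while C5.477 did not (-0.07). On library totals, the scale of the CPM values, the log2 fold changes over all 6 libraries were -0.20 in C5.477, -0.18 in C4.117, -0.19 in C5.359 and -0.17 in C1.572. Without YY-1 replicate c, the remaining YY-1 CPM values of C4.117 and C5.359 still lay above every winter value.

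The sign of the fold changes depended on the scaling of the libraries, which shifts all genes alike. On library totals, which the rule used, 46 steady genes had a log2 fold change above 0 and 54 below, with a median of -0.018. With TMM factors, which centre the libraries on the bulk of the genes, 78 were above 0 and the median was 0.07, and with DESeq2's size factors 85 were above 0 and the median was 0.10. The lean depended on the scaling used for the choice. When the rule chose 100 genes on TMM-normalized CPM, 54 were above 0 with TMM factors (median 0.0044). When it chose them on DESeq2's size factors, 44 were above 0 with TMM factors (median -0.022). The medians of the 1630 genes that met the rule were -0.0039 on library totals, 0.09 with TMM and 0.12 with DESeq2's size factors, slightly above those of the steady genes each time. The medians of all tested genes were -0.13, -0.03 and 0.00, so the steady genes and the well-expressed genes as a whole lay above them by a like amount under each scaling. The median CV of the steady genes was 7.98% on totals, 9.11% with TMM and 10.4% with DESeq2's size factors, and 33 genes had a lower CV with TMM than on totals. The steady genes were ranked on totals, which favours a low CV on that scale. Over the 1630 genes the median CV was 24.9% on totals, 24.4% with TMM and 24.8% with DESeq2's size factors.

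The rule picked partly other genes under another scaling. Of the 100 steady genes, 52 were among the 100 with the lowest CV with TMM and 37 with DESeq2's size factors, and those 37 were chosen under all 3 scalings. C7.292, at rank 2 on totals, stood at rank 58 with TMM (CV 8.06%), and C6.465 moved from rank 10 to rank 188 (CV 11.5%). C5.340 had the highest rank with TMM, 421 (CV 15.9%). In the other direction, C3.174 moved from rank 20 to rank 1 with TMM. It had 251, 278 and 248 CPM in YY-1 and 231, 257 and 242 CPM in winter on totals, a CV of 6.26%, and the CV fell to 2.89% with TMM and 3.77% with DESeq2's size factors. C1.110 had 509, 539 and 446 CPM in YY-1 and 436, 462 and 438 CPM in winter, a CV of 9.0% on totals but 3.41% with TMM and 2.75% with DESeq2's size factors, the lowest of all under the last. C3.174 and C1.110 were singled out after their values had been seen.

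**Figure D3:**
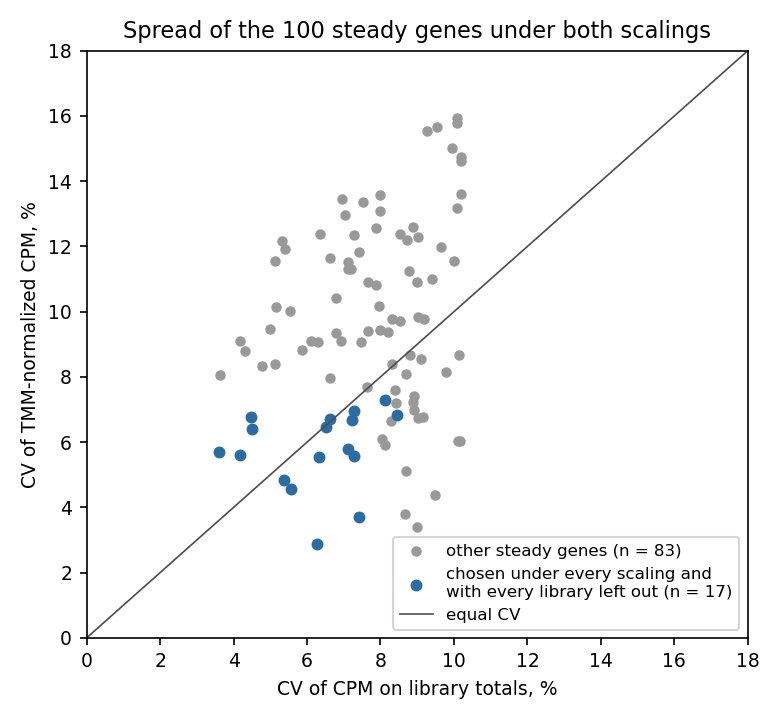
CV in percent of TMM-normalized CPM (y axis) against that of CPM on library totals (x axis), both linear from 0, for the 100 steady genes, 1 point a gene. The line marks equal values, and blue points are the 17 genes chosen under all 3 scalings and with every library left out. 33 genes lie below the line, and the blue points stay at or below 8.45% on totals and 7.30% with TMM. Low CVs on both axes were part of the choice of the blue points.

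The same rule applied to 5 libraries gives a view of the sixth that did not choose the genes. The 100 genes chosen without winter replicate c deviated there from the mean of the other 5 libraries by a median of 0.09 on the log2 scale, against 0.30 for all 1641 genes that met the rule. Without YY-1 replicate a the medians were 0.10 and 0.36, without winter replicate a 0.11 and 0.31, and without YY-1 replicate b 0.14 and 0.36. The chosen genes were least steady in YY-1 replicate c (0.20 against 0.30) and winter replicate b (0.20 against 0.37). In each of the 6 libraries the median deviation of the chosen genes was thus below that of all genes that met the rule, which include the chosen ones. These are descriptions over genes, and any pair of the 6 choices shares 4 libraries. The 5 libraries always held both strains, so the genes were already chosen for a small difference between the strains. The deviations of all genes that met the rule include their strain differences. The gap between the medians is therefore partly built in.

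Single genes deviated further. In winter replicate b 13 of the 100 genes chosen without it were off by more than 0.5 on the log2 scale, and in YY-1 replicate c there were 8, with 1 gene off by 1.14. In winter replicate c there were 0. In these 3 libraries the shares of all genes that met the rule were 38.0%, 30.0% and 27.7%, in the order winter b, YY-1 c and winter c. The direction also differed by library, since the median signed deviation of the chosen genes was 0.09 in winter replicate b and -0.09 in winter replicate a.

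**Figure D4:**
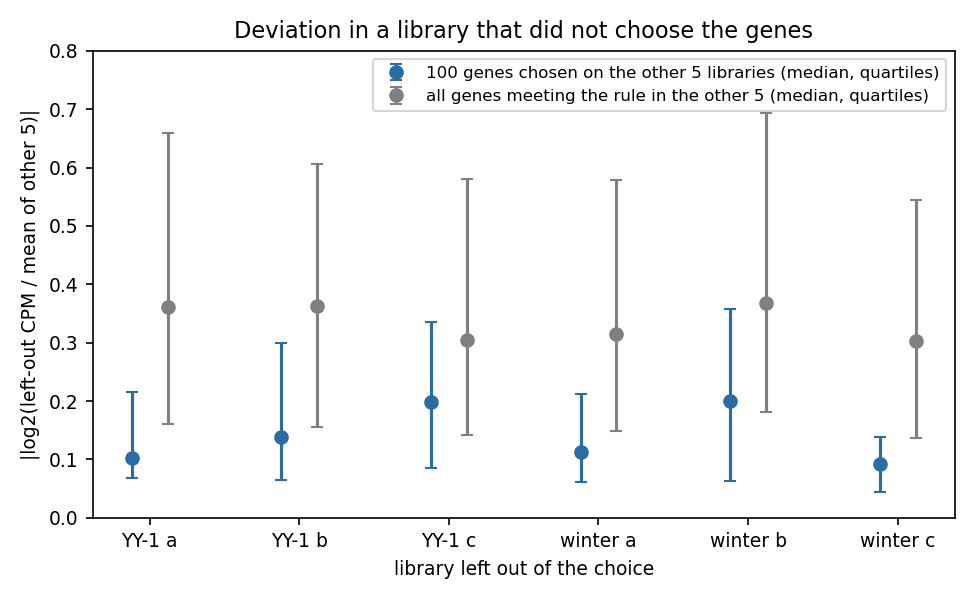
Absolute log2 ratio of the CPM in a left-out library to the mean of the other 5 (y axis, linear from 0), by left-out library (x axis). Blue is the median over the 100 genes chosen on the other 5 libraries and grey that over all genes that met the rule there, with bars from the lower to the upper quartile. The blue medians run from 0.09 (winter replicate c) to 0.20 (winter replicate b), below the grey median in every library.

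Between 65 (without winter replicate b) and 90 (without winter replicate c) of the 100 steady genes were chosen again when a library was left out. In all 6 choices 48 genes were kept, and every steady gene was kept in at least 1. All of the 10 genes with the lowest CV were kept in all 6. The genes kept in all 6 choices and under all 3 scalings numbered 17, and they lay on 7 of the 8 scaffolds with mean values of 105 to 273 CPM. In order of CV they were C8.485, C4.601, C6.213, C3.108, C1.155, C5.394, C3.174, C4.473, C3.75, C3.80, C3.856, C6.704, C1.915, C2.833, C2.65, C2.796 and C4.730. Their CVs were 3.60% to 8.45% on totals, 2.89% to 7.30% with TMM and 3.77% to 8.38% with DESeq2's size factors. Low CVs under each of these scalings were what chose the 17 genes, so these ranges are a description. C1.155, for example, had 118, 123 and 105 CPM in YY-1 and 115, 115 and 111 CPM in winter, with CVs of 5.37%, 4.84% and 5.88% under these scalings.

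The ratio of a pair of genes in a library does not depend on its scaling. Over the 4950 pairs of steady genes the SD of the log2 ratio had a median of 0.15, against 0.55 over all pairs of the 1630 genes. The ratios use the same values that chose the genes for a low CV, so the lower median follows from the choice. C6.213 had the lowest mean SD to the other steady genes (0.118) and C7.99 the highest (0.203). In C7.99 winter replicate b stood at 101 CPM, below the other 5 libraries at 123 to 137 CPM. The pair with the lowest SD was C3.80 and C2.833. C3.80 had 133, 139 and 136 CPM in YY-1 and 127, 154 and 135 CPM in winter, and C2.833 had 216, 229 and 222 CPM in YY-1 and 208, 255 and 219 CPM in winter. Both were highest in winter replicate b and lowest in winter replicate a, and their ratio stayed between 0.603 and 0.614. The SD of 0.010 of this pair is below the 0.045 that counting error alone gives, so that the lowest of 4950 values is no measure of how closely these genes follow each other.

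The steady genes were spread over all 8 large scaffolds. They numbered 11 on C1, 17 on C2, 16 on C3, 12 on C4, 9 on C5, 15 on C6, 12 on C7 and 8 on C8. As a share of the genes of the scaffold that met the rule, this ran from 3.85% on C1 to 8.11% on C7, against 6.13% over all. Places are given as the order of the listed genes, since no coordinates were used here. The longest stretches between consecutive steady genes of a scaffold were 305 places on C4, from C4.117 to C4.422, and 263 places on C3, from C3.186 to C3.449. In 11 cases neighbouring steady genes on a scaffold were 5 or fewer places apart, among them C3.75, C3.78 and C3.80, C4.596, C4.601 and C4.604, and C7.401, C7.406 and C7.408.

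**Figure D5:**
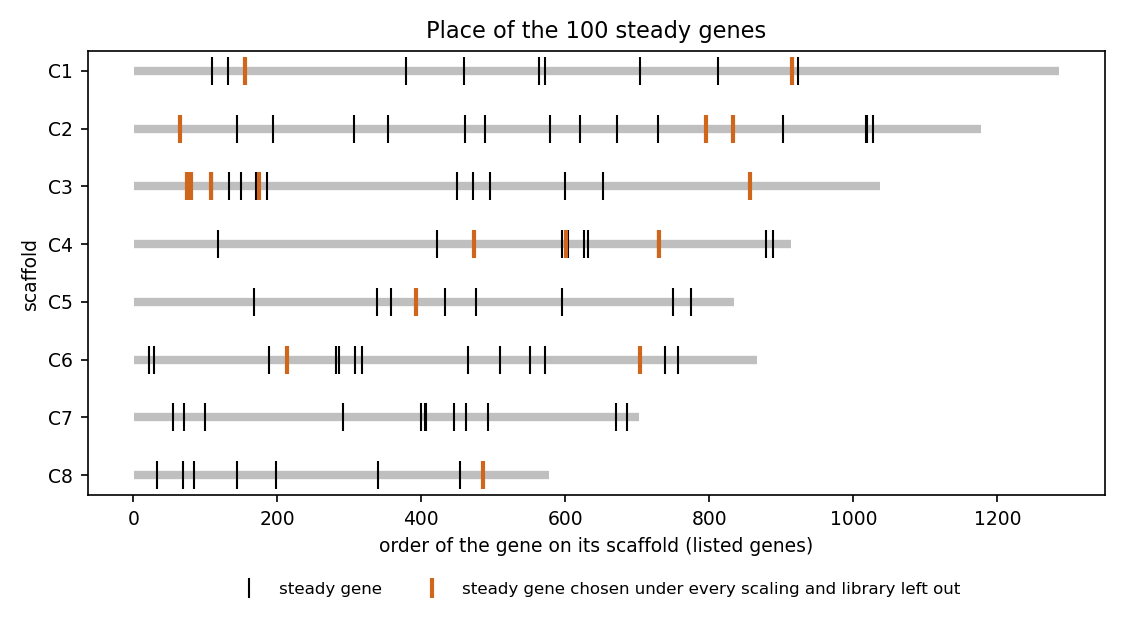
Place of the 100 steady genes as the order of the listed genes (x axis) on scaffolds C1 to C8 (y axis, grey bars as long as the number of listed genes). Each tick is a gene, and orange ticks are the 17 genes chosen under all 3 scalings and with every library left out. The scaffolds hold 8 (C8) to 17 (C2) steady genes, and no tick lies within 15 places of an end because the rule left those out.

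Steady genes were next to each other in 2 cases. C2.1018 had 580.3, 472 and 566 CPM in YY-1 and 532, 548 and 564 CPM in winter (CV 7.12%), and its neighbour C2.1019 had 101 to 113 CPM. C4.730 had 134, 150.1 and 129 CPM in YY-1 and 125, 153 and 146 CPM in winter (CV 8.45%), beside C4.729 with 117 to 131 CPM. In both cases the neighbours differed in which libraries stood high. Their log2 CPM values correlated at -0.25 (C2.1018 and C2.1019) and -0.47 (C4.729 and C4.730). Other close pairs differed from this. Over the 11 pairs 5 or fewer places apart, the correlation ran from -0.55 (C6.282 and C6.286) to 0.92 (C7.406 and C7.408), each from 6 libraries. YY-1 replicate b was the lowest library for C2.1018 but above 4 others for C2.1019, and it was the lowest for C4.729 but above 4 others for C4.730.

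Of the 192 tested genes directly next to a steady gene, leaving out neighbours that were steady genes themselves, 94 (49.0%) passed an adjusted p of 0.05 in edgeR between the strains, against 48.0% of all tested genes and 49.1% of the genes next to any gene that met the rule. Their median absolute log2 fold change was 0.46, against 0.48 for the latter. A change of more than 2-fold was found in 32 of them (16.7%), against 19.9%. The rule had ranked 41 of the 192 and passed them over. Among the 151 it had not ranked, 72 (47.7%) were called, against 47.5% of the unranked genes next to any gene that met the rule. Of the steady genes, 68 had a called gene on at least 1 side and 27 on both. The like shares for other genes were not computed. With 48.0% of all tested genes called, nothing about the steady genes is read from these counts. The 3 neighbours with the largest fold changes, and C4.421, were taken after the values had been seen. C2.462, next to C2.461, fell by 2.43 on the log2 scale (SE 0.25, adjusted p = 4.73e-05 in edgeR), from a mean in YY-1 of 5.71 ± 0.537 to 0.988 ± 0.221 CPM (SD, 3 libraries a strain). C8.199, next to C8.198, fell by 2.0 (SE 0.18, adjusted p = 1.89e-05 in edgeR), and its means were 314 ± 76.0 for YY-1 and 72.8 ± 1.42 CPM for winter. C7.402, next to C7.401, rose by 1.94 on the same scale (SE 0.17, adjusted p = 1.61e-05 in edgeR), where YY-1 stood at 36.5 ± 1.85 and winter at 131 ± 13.8 CPM. The higher-count neighbour C4.421, next to C4.422, rose by 1.81 (SE 0.17, adjusted p = 2.59e-05 in edgeR), from 344 ± 20.2 to 1131 ± 43.2 CPM.

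C4.422 itself had 365, 312 and 384 CPM in YY-1 and 395, 371 and 418 CPM in winter, with overlapping strains. C7.401 and C8.198 had CVs of 8.0% and 9.95%. C8.198 showed 216, 216 and 265 CPM in YY-1 and 252, 271 and 260.5 CPM in winter. C8.198 was the steady gene that passed the threshold when YY-1 replicate c was left out, with a log2 fold change of 0.43. C4.422 and C8.198 were described after their values had been seen.

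The places of the steady genes were also set beside 24 genes that the study's text names by number for pigment, citrinin, acetyl-CoA or NADPH metabolism. Of these, 16 met the rule before the spread was ranked and 0 were steady genes, from which nothing is read because many were named for a difference between the strains. The nearest approach was C7.672, 5 places from C7.667 (glucose-6-phosphate dehydrogenase, an NADPH source of the pentose phosphate pathway). C6.282 lay 11 places from C6.271 (succinate dehydrogenase of the citric acid cycle), and C3.75 and C1.155 lay 15 places from C3.60 (6-phosphogluconate dehydrogenase) and C1.170 (an oxidoreductase). The nearest steady gene to C5.137, the polyketide synthase gene assigned to the pigments, was C5.168 at 31 places. C5.168 also lay 27 places from the transcription factor gene C5.141. The nearest to the transcription activator gene C6.126 was C6.188 at 62 places. The study's text gives no numbers for the genes of the citrinin cluster, such as pksCT and ctnA, so the distance to them was not measured. C5.168 had 99.9, 112 and 107 CPM in YY-1 and 115, 132 and 120.1 CPM in winter (CV 9.64%). C6.188 had 489.9, 487 and 511 CPM in YY-1 and 524, 556 and 535 CPM in winter (CV 5.14%). All winter values were above all YY-1 values in both, and neither gene was among the 17 kept under every scaling and with every library left out. Both were described after their values had been seen.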

How the data were processed

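Mycelia of the YY-1 and winter strains were sequenced in 3 libraries each. After quality filtering, the authors aligned the reads to transcripts predicted from the genome of YY-1, and reads falling on unique exons were counted. The submitters' processing notes name TopHat2 2.0.8b and HTSeq 0.5.4p2, while the paper's methods name other versions. The deposited values are raw counts per gene for 7491 rows, 2 of which join a pair of gene models and were placed at the lower number. The strand of the reads is not given in the sources used here, so that overlapping genes can share reads, and near-identical genes can be undercounted.

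CPM on library totals chose the 100 genes. The strains were compared with edgeR 4.0.16 (quasi-likelihood test, TMM factors, default filter on low counts leaving 7355 genes, strain as the only term), with Benjamini-Hochberg adjustment over all tested genes. Intervals are the log2 fold change ± the t quantile times the standard error. The edgeR fit was tested on simulated data for the 7355 genes. R 4.3.3 ran these fits and DESeq2 1.42.0, and Python 3.11.15 ran the choice of genes, with matplotlib 3.10.9, numpy 2.4.6, scipy 1.17.1 and pandas 2.3.3. Counting intervals cover counting error only.

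The members and lists were chosen with earlier results of these data known. The genes named are the 10 with the lowest CV, the 4 highest and 4 lowest by mean CPM and by log2 fold change, the 3 on each side of the border, direct neighbours, the 5 lowest-CV genes kept under every scaling and with every library left out, the pair with the lowest SD of its ratio, and up to 6 genes with a Gene Ontology term in the supplement, whose part at hand gave 0. Other genes given with values were described after their values had been seen. Alternatives were other scalings, filters, thresholds and ranking measures, DESeq2, the replicate letter as a block, and each library left out.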

Additional observations from a re-analysis of the deposited data

How the results depend on the processing

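The number of genes called between the strains was 3531 and stayed within 1.5 times of that under every alternative except an adjusted p below 0.001, which gave 1141, and it was 2666 to 3503 with a library left out. The number of steady genes called was 0 in the edgeR test. It was 1 with DESeq2's size factors in edgeR, 2 in DESeq2's Wald test, and 0 to 1 with a library left out (1 without YY-1 replicate c and 1 without winter replicate b). With the replicate letter as a replicate block 3841 genes and 0 steady genes were called. The correlation of same-letter deviations from the strain mean was 0.10 (a), 0.28 (b) and 0.10 (c), and that of the other pairs ran from -0.30 to 0.18. YY-1 replicates b and c correlated best with the winter replicate of the same letter, and YY-1 replicate a with winter replicate c (0.18). Whether the letters mark a shared batch is not given by the labels and was not tested.

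Of the 100 steady genes, 52 were chosen again with TMM, 37 with DESeq2's size factors, 59 with a minimum of 50 CPM, 35 with a minimum of 200 CPM, 30 by the pooled CV within strains and 32 by the larger CV of the strains. By the SD of log2 CPM 95 were kept, and without the limits on scaffold ends and highest genes 98. With a library left out 65 to 90 were kept. The minimum of 200 CPM removes genes by its own construction. The minimum of 50 CPM and the lifted limits only add candidates, so that the genes lost there gave way to added ones. The cause of the other changes was not tested.

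The median CV of the steady genes was 7.98%, moved to 9.11% with TMM and 10.4% with DESeq2's size factors, and was 7.20% to 8.11% with a library left out. The steady genes were ranked on library totals, which favours a low CV on that scale. Their median log2 fold change of 0.07 became -0.018 on library totals and was 0.037 to 0.14 with a library left out. For the named genes, 262 of the recomputed log2 fold changes lay within 1 SD of the reported value and 10 did not. Of these values, 35 in 16 genes had another sign than the reported one. Among them were C4.117 (0.0098) and C5.359 (0.022) on TMM-scaled libraries without YY-1 replicate c.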
